A study of Mus musculus with 12 samples.

Results

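The genes described here are 9 markers and effectors of alternatively activated macrophages, and the measurements are the N6-methyladenosine (m6A) peaks called on their RNA in lung tissue of asthmatic and control mice. The genes were chosen by name, and a peak was counted when the gene assigned to it, or the gene on which it was called, was among them. This gave 15 of 53394 peaks, of which 7 were among the 27292 peaks of the OVA list and 8 among the 26102 peaks of the PBS list. In all 15 peaks the assigned gene and the called gene were the same, and all 15 lay within the RefSeq bounds of that gene on the GRCm38 build of the mouse genome.

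The study used female BALB/c mice. The OVA group was sensitized by injection of ovalbumin (OVA) with aluminum hydroxide as adjuvant and then challenged with aerosolized OVA, a model of acute allergic asthma, whereas the PBS group received phosphate-buffered saline by both routes. From each group the lungs of 3 mice were sequenced, each as an RNA library immunoprecipitated with an m6A antibody (IP) and an input library without that step, and a peak is a stretch of exon where IP reads exceeded input reads. Lung and bronchoalveolar lavage fluid were taken after an airway provocation test, and whether the sequenced lungs had been lavaged is not stated. Each group has a single list of peaks with no values of single mice, so no value has a replicate error and no test was possible. Every comparison of OVA with PBS sets values of separately made lists side by side. The lists hold neither read counts nor expression levels, so the depth behind a peak is unknown.

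m6A is a methyl mark on adenosines of messenger RNA that reader proteins bind, and it is known to affect splicing, translation and decay of the transcript. It is typically found around the stop codon and in the 3' UTR. Alternatively activated macrophages form under the cytokines IL-4 and IL-13, which signal through the IL-4 receptor and STAT6, and in the mouse lung they are known for chitinase-like proteins, resistin-like molecules and lectin receptors. Resident alveolar macrophages carry several of the same receptors without allergen, and eosinophils, dendritic cells and airway epithelium express some of these genes too. In whole lung tissue, a difference in the number of such cells and a difference in RNA per cell cannot be told apart, and the same holds for a missing peak and a low amount of the transcript.

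Of the 9 genes, 6 had a peak in at least 1 list. Mrc1, Clec7a, Mgl2 and Pparg had peaks in both lists, Trem2 had a peak in the OVA list and none in the PBS list, and Chil3 had a peak in the PBS list and none in the OVA list. Among all 17612 genes with an assigned or called peak in either list, 10.2% had one in the OVA list only and 6.95% in the PBS list only. The remaining 3 genes, Chil4, Retnla and Clec10a, had no peak, and no peak of any other gene fell within their RefSeq bounds in either list. By single peaks, with an overlap of at least 1 bp of exonic block, 1 of the 7 OVA peaks had no overlapping PBS peak, beside 19.4% of all OVA peaks, and 2 of the 8 PBS peaks had no overlapping OVA peak, beside 14.5% of all PBS peaks. Stricter rules of overlap raise the shares of the whole lists, to 31.4% and 28.3% where 50% of both peaks must overlap. With counts this small, these shares are not a result about the genes.

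**Figure D1:**
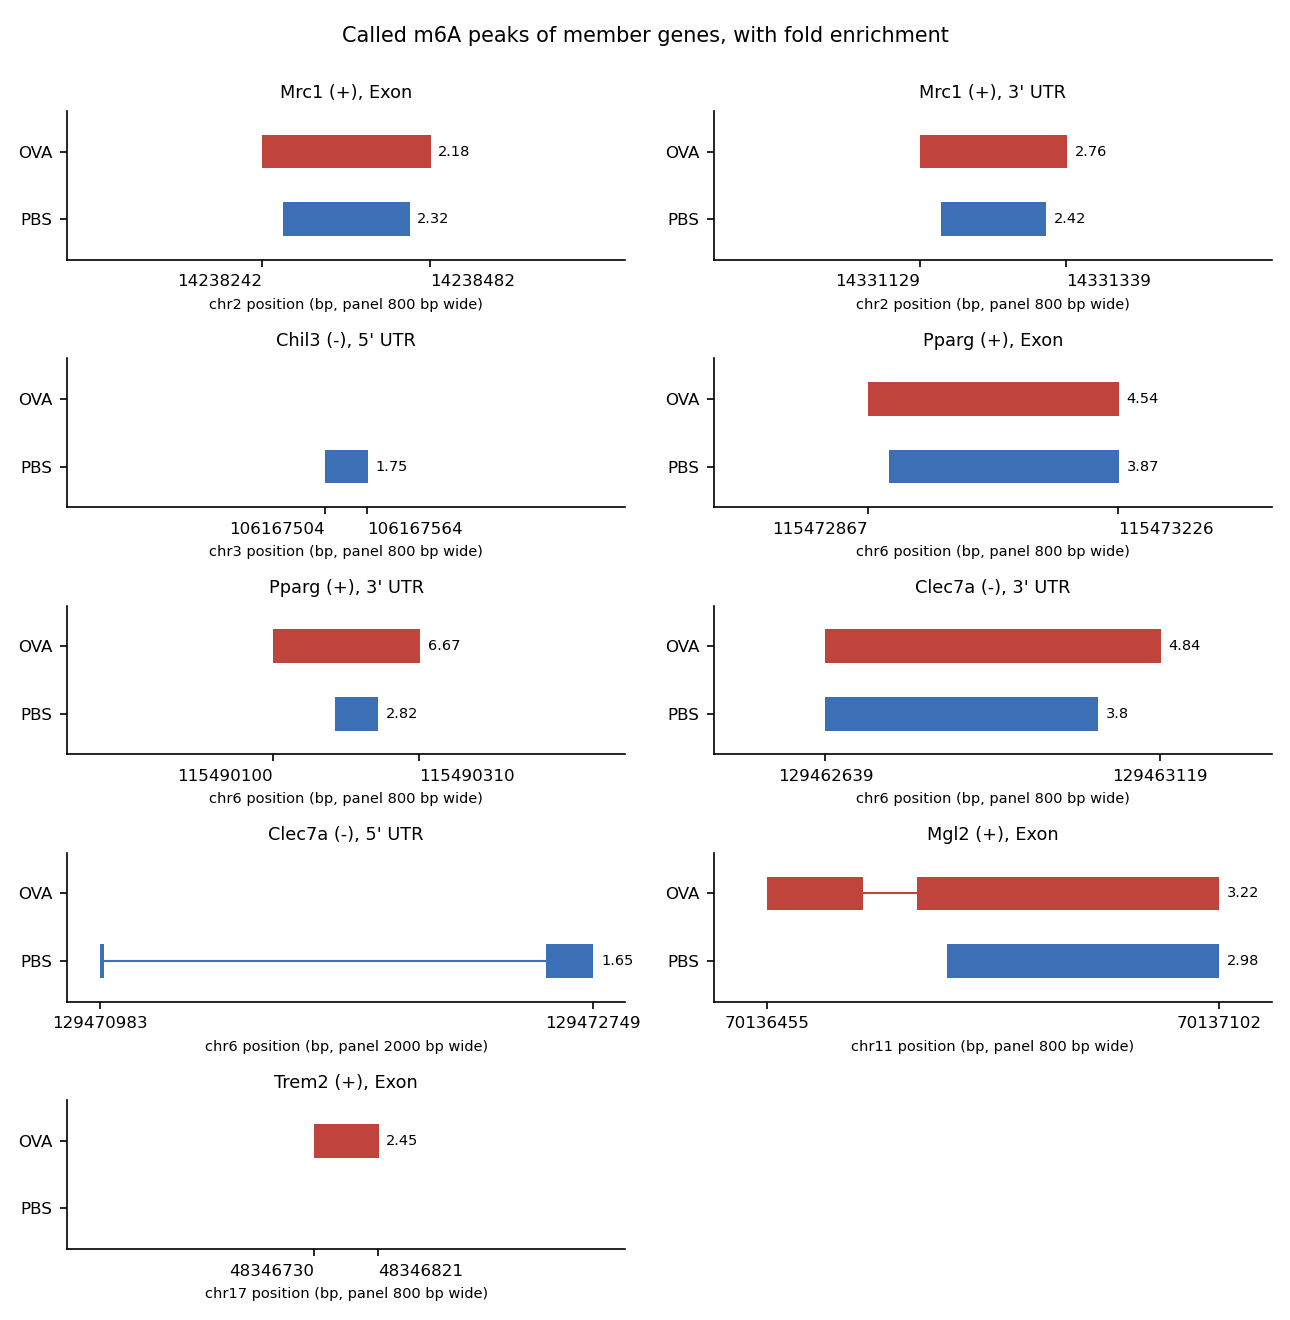
Each panel shows a place on a member gene where a peak was called, with genomic position in bp on the x axis and the OVA (red) and PBS (blue) lists on the y axis; boxes are exonic blocks, thin lines join blocks of the same peak, the number is the fold enrichment, and the sign gives the gene's strand. In the 6 places with a peak in both lists the OVA peak covers more bases, and 3 places have a peak in a single list.

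Among the secreted effectors, Chil3 encodes the chitinase-like protein Ym1, which binds sugars and lacks chitinase activity. Its peak in the PBS list was at chr3:106167504-106167564 on the minus strand, in the 5' UTR at the start of the transcript. The peak was 61 bp wide, which ranked at percentile 0.828 of widths in its list, where a percentile is the percent of peaks of the same list with a lower or weaker value, and its fold enrichment of 1.75 ranked at percentile 6.20. The log10 p was -4.51. Chil4, which encodes the close relative Ym2 and lies on the same strand at chr3:106201491-106219479, had no peak, nor had Retnla, which encodes resistin-like molecule alpha, a secreted protein known from allergic lung, at chr16:48842609-48844461.

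The 5' ends of Chil3 and Chil4 were compared, since the Chil3 peak covers the start of its transcript. Of the 9 genes, 8 matched the RefSeq table of windows (GRCm38.p6) that hold 250 bases before and 50 bases after a transcript start, and the windows of Chil3 and Chil4 were 92.6% identical over 271 aligned bases with a longest identical run of 53 bases. Most of this lies before the transcript starts, since 22 of the aligned bases are transcribed in both genes. The m6A consensus was searched in the 50 transcribed bases as A, G or T, then A or G, then A and C, then A, C or T, on the transcript strand. Both windows held it once, at base 37 of the Chil3 transcript and base 9 of the Chil4 transcript. Of the other genes, Retnla and Mrc1 held it at 2 places, Trem2 and each of the 3 Pparg windows at 1, and Mgl2 and both Clec7a windows at none. The stretches of 30 bases around the match are shown because they are the same in both genes, and capitals mark the match:
Chil3, chr3:106167517-106167546, minus strand: ctccagaagcaatcctgaAGACAccatggc
Chil4, chr3:106219460-106219489, minus strand: ctccagaagcaatcctgaAGACAccatggc
The Chil3 stretch lies wholly inside the PBS peak, whereas the first 10 bases of the Chil4 stretch lie before the RefSeq start of that gene. The match itself is common: 54.4% of all 32851 windows held it in the transcribed bases on that strand, and 80.4% on either strand.

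Of the lectin receptors, Mrc1 encodes the macrophage mannose receptor and had peaks at both ends of the gene in both lists. The peak in exon 2 of 30 was at chr2:14238242-14238482 in OVA and chr2:14238272-14238452 in PBS, on the plus strand. Enrichment was 2.18-fold in OVA and 2.32-fold in PBS, while its log10 p was -101 and -17.4. The peak in the 3' UTR was at chr2:14331129-14331339 in OVA and chr2:14331159-14331309 in PBS, 684 and 714 bp from the RefSeq 3' end. There the fold enrichment was 2.76 and 2.42, with a log10 p of -135 and -10.3. In each place the OVA peak reached 30 bp further on both sides, and the values of fold enrichment were close while those of p were not.

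Clec7a encodes the receptor for fungal beta-glucans. Its 3' UTR peak on the minus strand of chromosome 6 had the same 3' end in both lists and was 481 bp wide in the OVA list (chr6:129462639-129463119) and 391 bp wide in the PBS list (chr6:129462639-129463029). The fold enrichment was 4.84 in OVA and 3.80 in PBS. The log10 p of -1980 in the OVA list, against -99.5 in the PBS list, was the lowest of all 15 peaks and ranked at percentile 99.0 of its list. A further peak of 2 exonic blocks, chr6:129470983-129472749, was annotated to the 5' UTR in the PBS list, with no overlapping OVA peak. It had the lowest fold enrichment of the 15 peaks, 1.65, and a log10 p of -5.32.

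Mgl2 and Clec10a encode related lectins that bind galactose and N-acetylgalactosamine and are carried by macrophages and dendritic cells. Mgl2 had a peak in each list near the 3' end of the gene on the plus strand. The OVA peak, chr11:70136455-70137102, consisted of 2 blocks and was annotated to exon 8 of 10, whereas the PBS peak, chr11:70136712-70137102, consisted of 1 block in exon 9 and ended at the same base. The fold enrichment was 3.22 and 2.98, and the log10 p was -120 and -15.1. Clec10a, at chr11:70166623-70170836 beside Mgl2, had no peak in either list.

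Pparg encodes the lipid-activated nuclear receptor that alveolar macrophages need for their development and that IL-4 engages in alternative activation. Its peak in exon 7 of 8 was at chr6:115472867-115473226 in OVA and chr6:115472897-115473226 in PBS, on the plus strand. The fold enrichment was 4.54 and 3.87, with a log10 p of -64.8 and -30.8, the smallest ratio of log10 p among the places with a peak in both lists. In the 3' UTR, the OVA peak (chr6:115490100-115490310) was 211 bp wide and the PBS peak inside it (chr6:115490189-115490250) 62 bp wide. Here the fold enrichment was 6.67 in OVA and 2.82 in PBS, the widest gap among the shared places, at a log10 p of -10.8 and -3.21. By p these calls were at percentiles 36.4 and 10.2 of their lists.

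Trem2 encodes a lipid-sensing receptor of macrophages that signals through the adaptor Tyrobp. Its peak in the OVA list, chr17:48346730-48346821 on the plus strand, was 92 bp wide and annotated to exon 1 of 4. The fold enrichment was 2.45 with a log10 p of -10.6, at percentile 36.0 of p. No peak was called on Trem2 in the PBS list, and none on Tyrobp in either list.

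The 6 places with a peak in both lists were then compared with all 17211 pairs in which an OVA peak overlapped exactly 1 PBS peak and the reverse. The OVA peak had the lower p in 6 of 6 places, beside 59.8% of all pairs. It covered more bases in 6 of 6, beside 50% of all pairs (the PBS peak covered more in 5503), and had the higher fold enrichment in 5 of 6, beside 61.5%, with the Mrc1 exon as the exception. The log10 p in the OVA list was 2.10 to 19.9 times that in the PBS list, with a median of 6.88, against a median of 1.14 and an upper quartile of 1.68 over the 17171 pairs with finite values. Ranked among these pairs, the ratio was at percentile 83.5 for the Pparg exon, 93.2 for the Pparg 3' UTR, and from 97.3 for the Mrc1 exon to 99.6 for Clec7a. For fold enrichment, the ratio of OVA to PBS ranked between percentile 31.1 for the Mrc1 exon and 68.2 for Clec7a in 5 places and at 95.3 for the Pparg 3' UTR. The p of a called peak depends on the number of reads in it as well as on the enrichment, and the part of read number in these differences was not tested.

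**Figure D2:**
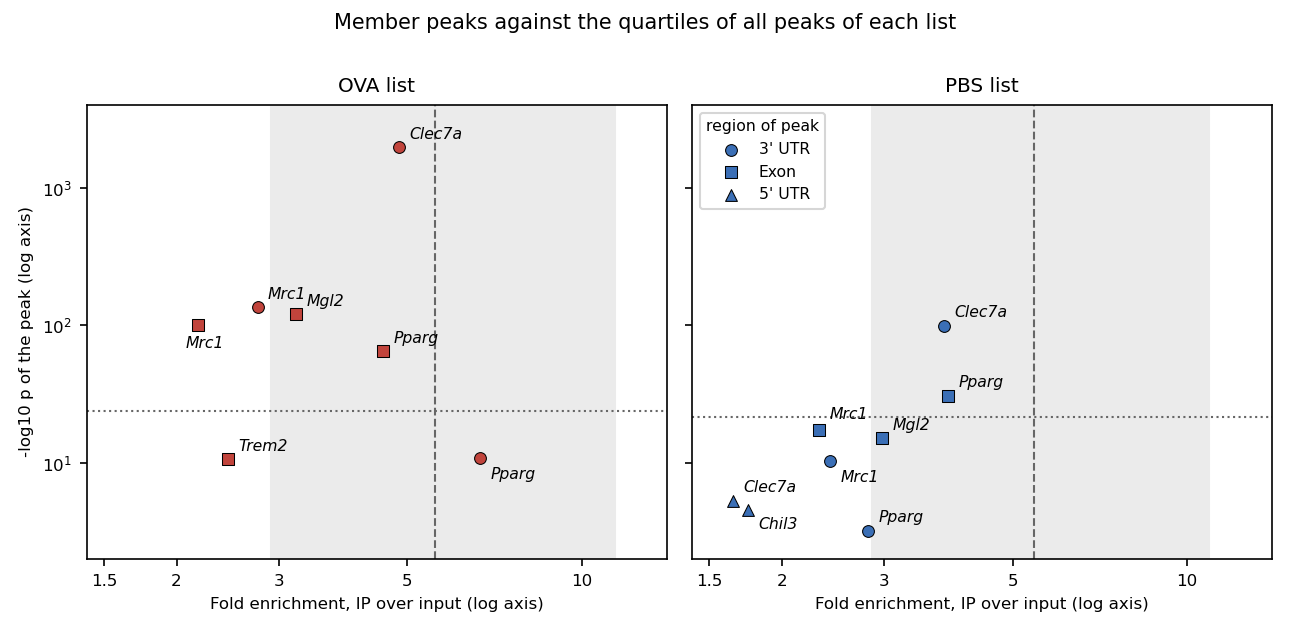
Fold enrichment of IP over input (x axis, log scale) against -log10 p (y axis, log scale) for the 7 OVA and 8 PBS member peaks, with symbols for the annotated region; the shaded band spans the quartiles of fold enrichment of all peaks of that list, the dashed line is its median and the dotted line the median of -log10 p. All but 1 of the 15 peaks lie left of the dashed line, and 5 of 7 OVA peaks but 2 of 8 PBS peaks lie above the dotted line.

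Within their own lists the peaks of these genes had low fold enrichment. The median over the 7 OVA peaks was 3.22, beside 5.59 over the whole OVA list, and over the 8 PBS peaks 2.62, beside 5.44 over the whole PBS list. In all, 14 of the 15 peaks were under the median of their list, the exception being the Pparg 3' UTR in the OVA list. The 15 peaks are not separate observations, since 6 places count in both lists. The median percentile of fold enrichment was 29.0 in OVA and 21.3 in PBS. By p the lists differed: 5 of 7 OVA peaks but 2 of 8 PBS peaks had a lower p than the median of their list, which was -24.0 and -21.4 on the log10 scale. By width, 9 of 15 covered fewer exonic bases than the median of their list, 330 bp for OVA and 328 bp for PBS, a share close to the even split that a median gives.

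By annotated region, 3 OVA peaks were in the 3' UTR and 4 in exons, while the PBS peaks comprised 3 of the 3' UTR, 3 of exons and 2 of the 5' UTR. Over the whole OVA list, the 3' UTR held 52.7%, exons 35.7% and the 5' UTR 11.6% of peaks, and the PBS shares were 52.7%, 35.9% and 11.4%. The region and the exon number are those of the authors' peak annotation. The transcript to which a peak was assigned was not protein-coding for 5 OVA and 5 PBS peaks of these genes, beside 58.2% and 57.5% of all peaks. For Clec7a it was a transcript classed as a polymorphic pseudogene, for Pparg and the Mrc1 3' UTR a retained-intron transcript, and for Trem2 a processed transcript. A region given for these peaks need not be one of that transcript, and which transcript it refers to was not checked. In the gene annotation carried by the lists, Chil3, Clec7a, Mgl2 and Mrc1 shared the term carbohydrate binding, Clec7a and Trem2 innate immune response, and Pparg and Trem2 positive regulation of phagocytosis, engulfment.

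Genes of the cytokine signalling that induces alternative activation were read in the same lists. Of 20 genes of IL-4 and IL-13 signalling, which include Pparg, 16 had a peak called on them in both lists and 4 had none. Thus all 16 genes with a called peak had one in both lists. Of all 14943 genes with a called peak, 82% had one in both lists, 10.8% in the OVA list only and 7.20% in the PBS list only. The transcription factors Cebpb, Irf4 and Klf4 had the highest fold enrichment in the OVA list, at 43.0, 30.4 and 25.3, and Irf4, the receptor subunit Il13ra1 and Cebpb in the PBS list, at 37.7, 31.6 and 30.4. The highest value of any member was 6.67. The lowest p of a gene was lower in the OVA list for 12 of the 16, beside 61.1% of all 12251 genes with a called peak in both lists, a comparison chosen after the values of the members were seen. For Irf4 the lowest log10 p was -2020 in OVA and -171 in PBS, and for Il4ra, the shared receptor chain, -2840 and -1490. The lowest p was lower in the PBS list for Jak3, Irs2, Klf4 and Kdm6b, at -1110 in OVA and -1740 in PBS for Kdm6b. The 4 genes without a called peak were Il4, Il13, Il13ra2 and Tyk2; peaks assigned to Il13 in both lists had been called on its neighbour Rad50, and a peak assigned to Tyk2 in the PBS list only (2.19, log10 p of -1.96) on Cdc37.

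Of 27 other genes of alternative activation, 15 had a called peak in OVA and 11 in PBS. All 11 were shared. Of the 15 genes with a called peak, 4 (Ccl24, Mmp12, F13a1 and Axl) had one in the OVA list only, beside 10.8% of all genes with a called peak. The eotaxin gene Ccl24 had a top fold enrichment of 5.17 and the macrophage elastase gene Mmp12 of 6.03, whereas F13a1 (2.50) and the receptor kinase gene Axl (1.55) were low in the list. The lowest p was lower in the OVA list for all 11 genes with peaks in both lists, beside 61.1% of all such genes. Ch25h, Mertk and Syk had the highest fold enrichment in the OVA list, at 25.7, 17.6 and 14.3, and Pdcd1lg2, Syk and Mertk in the PBS list, at 24.7, 24.4 and 14.3. For Pdcd1lg2, the ligand of the receptor PD-1 that IL-4 is known to induce on macrophages, the highest fold enrichment was 10.4 in OVA against 24.7 in PBS, while the lowest log10 p was -1640 against -30.0, so the measures ran in opposite directions.

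Paralogs of the members were read next. Of 29 paralogs, 12 had a called peak in OVA and 9 in PBS, and these 9 were shared. Of the 12 with a called peak, 3 had one in OVA alone and 0 in PBS alone, beside 10.8% and 7.20% of all genes with a called peak. Retnlg, a relative of Retnla, had a 3' UTR peak at chr16:48874347-48874496 in the OVA list with a fold enrichment of 2.46 and none in the PBS list. The same held for the lectin genes Clec4e (7.38) and Clec4a2 (highest 1.93). Among the 9 genes with peaks in both lists, Mrc2, Pla2r1, Clec1a, Clec1b, Clec9a, Ppara, Ppard, Trem1 and Treml2, the lowest p was lower in the OVA list for 3 (Mrc2, Ppard and Treml2), beside the same 61.1%. Clec1a, Ppara and Treml2 had the highest fold enrichment, at 21.3, 14.5 and 12.6 in the OVA list and 18.4, 15.0 and 10.6 in the PBS list. None of the chitinase-like and chitinase genes Chil1, Chil5, Chil6, Chia1 and Chit1 had a called peak.

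Markers of the cells that carry these genes were read in the same way, and each count of a lower p in OVA stands beside 61.1% of all genes with a called peak in both lists, each peak in OVA alone beside 10.8% and each in PBS alone beside 7.20% of all genes with a called peak. The shares for a peak in a single list leave out genes with no called peak in either list. Of 9 pan-macrophage and alveolar macrophage markers, 4 had a called peak in both lists, and for all 4 the lowest p was lower in the OVA list. Csf1r, Car4 and Lyz2 had the highest fold enrichment in both, at 15.6, 11.7 and 6.03 in the OVA list and 19.9, 11.1 and 4.73 in the PBS list. Itgax, an integrin of alveolar macrophages and dendritic cells, had a fold enrichment of 3.26 and 3.35, with a lowest log10 p of -1950 against -105. For the other markers these values were close, at -256 against -247 for Csf1r, -202 against -184 for Car4 and -514 against -416 for Lyz2. Marco, Siglecf, Adgre1, Cd68 and Fabp1 had no called peak in either list. Of 11 genes of classical activation, 6 had a called peak in both lists, all with the lower p in the OVA list, and Nos2, the inducible nitric oxide synthase, had one in the OVA list (2.83) and none in the PBS list. Cd86, Irf5 and Il1b had the highest fold enrichment of this list in both, at 17.8, 11 and 8.53 in OVA and 5.82, 9.10 and 6.54 in PBS.

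Markers of eosinophils and airway epithelium were counted as well. Of 8 eosinophil markers, 3 had a called peak in both lists, each with the lower p in the OVA list; Ear6 had one in the OVA list (5.65) and Ear1 one in the PBS list (7.65), genes of a family of close copies. Il5ra, the IL-5 receptor, and Ccr3, the eotaxin receptor, had fold enrichments of 21.8 and 13 in the OVA list and 52.3 and 6.17 in the PBS list, with a lowest log10 p of -194 and -254 against -16.9 and -2.70. The granule genes Prg2 and Epx had no called peak. Of 8 markers of airway secretory epithelium, 5 had a called peak in both lists, 4 of them with the lower p in the OVA list, and Clca1, a marker of goblet cells, had a peak in the OVA list (3.55, log10 p of -999) and none in the PBS list. Foxa3, Spdef and Muc5ac had the highest fold enrichment in the OVA list, at 27.7, 22.5 and 10, and Muc5ac, Foxa3 and Muc5b in the PBS list, at 20.7, 15.8 and 10.9. For the mucin gene Muc5ac the lowest log10 p was -461 against -6.13, and for the club cell gene Scgb1a1 it was -7640 against -11200.

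Of 7 dendritic cell markers, 4 had a called peak in both lists, 2 of them with the lower p in the OVA list. Flt3, Ccr7 and Zbtb46 had the highest fold enrichment in the OVA list, at 34.9, 24.0 and 22.3, and Ccr7, Zbtb46 and Xcr1 in the PBS list, at 20.5, 12.9 and 9.82. Of 8 markers of alveolar epithelium, 7 had a called peak in both lists, which are genes that define the labelled tissue, and 6 of them had the lower p in the OVA list. Abca3 had the highest fold enrichment, at 6.90 and 6.07, followed by Sftpd at 5.24 and 5.12, then Hopx at 4.26 in the OVA list and Sftpb at 3.22 in the PBS list; Sftpc had no called peak. The part of these cell types in the peaks of the 9 genes was not tested.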

How the data were processed

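Lung RNA of 3 OVA and 3 PBS mice gave 3 IP and 3 input libraries per group. The authors trimmed reads with FASTP, aligned them with HISAT2 to the Ensembl mouse genome, used exomePeak for peak calling and ChIPseeker for annotation; the versions of these tools are not given in the sources used here, nor is how mice were combined. The fold enrichment is a deposited ratio of IP over input, and the log10 p and log10 FDR are deposited scores of the authors' caller. The number of exonic blocks was used as deposited. Peak widths were ranked and compared as exonic bases summed over the blocks of a peak, computed from the deposited block starts and sizes.

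Gene identifiers were matched to symbols for 27259 OVA and 26070 PBS peaks. Peaks of both lists overlapped if they shared at least 1 bp of exonic block on the same chromosome; a strand was also planned, but the lists give only that of the assigned transcript, so it was tried as an alternative. Percentiles were taken within a list, with ties split evenly. Gene lists were counted by the called gene. For each list, genes with a peak in a single group and the 3 with the highest fold enrichment per group were named. All members, all paralogs with a peak and, except for Pparg, all neighbours within 100 kb with a peak were named too. Some genes are not reported here and were left out of all counts over members, marker lists and neighbours. The members and lists were chosen with earlier results of these data known. No test was run, since there are no values of single mice. The overlap code was tested on simulated peaks. Python 3.11.15, pandas 2.3.3, numpy 2.4.6, scipy 1.17.1, biopython 1.88 and matplotlib 3.10.9 were used.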

Additional observations from a re-analysis of the deposited data

How the results depend on the processing

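Of 55 values under another setting, 39 stayed near the reported one (counts within 1.5 times, percentiles within their 95% binomial interval) and 16 moved. That interval does not measure the spread among member peaks. By it, a shift of the OVA median percentile from 29 to 28.1 counts as moved. The cause of a move was not tested beyond what each setting removes. With peaks of protein-coding transcripts only, 2 OVA and 3 PBS member peaks were left. With identical start and end required, 7 of 7 member peaks in the OVA list and 8 of 8 in the PBS list had no counterpart, as had 24493 OVA peaks (89.7%) and 23303 PBS peaks (89.3%) of the whole lists. With an overlap of 50% of both peaks, 8579 OVA peaks (31.4%) and 7390 PBS peaks (28.3%) had none, as had 2 OVA and 3 PBS member peaks. With a fold enrichment of at least 2 in both lists, 0 PBS member peaks were without a counterpart. The Chil3 peak and the Clec7a 5' UTR peak fall under this threshold. In the whole lists, 4779 OVA peaks (19.5%) and 3351 PBS peaks (14.4%) had no counterpart at this threshold, as had 1 OVA member peak. The median percentile of fold enrichment became 26.4 (OVA) and 19.2 (PBS) among protein-coding peaks, 28.1 and 20.4 among peaks with an FDR under 0.05, and 31.4 and 20.8 among peaks of the same region. All 15 member peaks passed an FDR under 0.05, as did 26783 of all 27292 OVA peaks and 25539 of all 26102 PBS peaks. Requiring the same strand of the assigned transcripts, chosen after seeing the data, left the member counts at 1 and 2. In the whole lists, 20% of OVA and 15.1% of PBS peaks had no counterpart under that rule. With an overlap of 50%, also chosen then, the OVA peak had the lower p in 5 of 5 pairs and the higher fold enrichment in 4. The share of all pairs under that overlap is not given.

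No paired analysis was possible because the lists hold no values of single mice; for the same reason no mouse was left out in turn. Depth per peak is unknown, so a missing peak is not an absence of m6A. The coordinates were read on GRCm38, and beyond the windows at transcript starts no sequence of the peaks was analysed.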

Other observations

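Genes within 100 kb of a member were read for the same measures, and neighbours of Pparg are not given here. Around Clec7a, peaks were called on Clec12b, Clec1b, Clec9a, Clec1a, Olr1, Gabarapl1 and 1700101I11Rik. Clec1a, on the side of the Clec7a 3' end, had the same peak bounds in both lists, chr6:129427346-129429997, with a fold enrichment of 21.3 in OVA and 18.4 in PBS and a log10 p of -1670 and -2940, the reverse of the order of p at Clec7a. Olr1, the receptor for oxidized low-density lipoprotein, had a 3' UTR peak with a fold enrichment of 11.2 and 11.9 and a log10 p of -1180 and -154. Peaks on Clec12b and 1700101I11Rik were in the OVA list without a PBS counterpart.

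Around Trem2, peaks were called on Treml2, B430306N03Rik, Nfya, Oard1 and, in the PBS list only, Apobec2. The strongest peak called on Treml2, a relative of Trem2, was assigned to the 3' UTR of B430306N03Rik and had a fold enrichment of 12.6 and 10.6 and a log10 p of -261 and -70.4. Around Mgl2 and Clec10a they were called on Dlg4, Slc16a13, 0610010K14Rik, Gm21988, Rnasek, Slc16a11 (PBS list only) and Alox12 (OVA list only). Stam near Mrc1 had a fold enrichment of 24.1 and 25.6 with a log10 p of -483 and -462. Near Retnla, Retnlg and Gm8670 had peaks in the OVA list only. Apart from Retnlg (-26.1) and Apobec2 (-25.5), the neighbours with a peak in a single list had a log10 p from -4.05 for Slc16a11 to -1.91 for Gm8670. Over all genes with a called peak, 10.8% had one in OVA alone and 7.20% in PBS alone. Besides the Chil3 peak itself, no peak was called within this distance of Chil3 or Chil4.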
